A study of Mus musculus with 15 samples.

Results

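The thick ascending limb genes are 8 genes of 1 segment of the kidney tubule: Slc12a1, Umod, Egf, Bsnd, Casr, Ppp1r1a, Kng2 and Ptger3. They were chosen as transporters, secreted products and regulators of that segment, with earlier results of these data known. Each was read from the probe set annotated to it alone. All 8 were measured, each by 1 probe set, among 23521 probe sets annotated to exactly 1 gene and covering 22180 genes. The samples were whole kidneys of mice aged about 6 months, 8 Grhl1-/- mice (knockout, numbered 8 to 15) and 7 Grhl1+/+ mice (wild type, numbered 1 to 7). Grhl1 is a transcription factor of the grainyhead-like family, known from epithelia. The labels gave no sex, strain, litter or design of the deleted allele. Each mouse gave 1 sample on a 1-colour expression array, and its deposited values are on the log2 scale after the authors' RMA (robust multi-array average), with 1 value for each probe set.

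The thick ascending limb of the loop of Henle takes up sodium, potassium and chloride from the tubule fluid without letting water follow, which dilutes the fluid and builds the salt gradient of the medulla. Slc12a1 (NKCC2) carries the 3 ions in from the lumen, chloride leaves on the blood side through ClC-K channels with their subunit barttin (Bsnd), and the lumen-positive voltage drives calcium and magnesium between the cells. The segment secretes uromodulin (Umod) into urine and makes the precursor of epidermal growth factor (Egf). The calcium-sensing receptor (Casr) and the prostaglandin E2 receptor EP3 (Ptger3) oppose its salt uptake, whereas vasopressin stimulates it through cyclic AMP. Mutations of SLC12A1 and BSND in humans cause forms of Bartter syndrome, a salt-wasting disease.

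The stretches just before the starts of 3 members are shown because Grhl1 is a DNA-binding factor and because the results turn on these genes: Umod and Slc12a1 define the segment, and Kng2 had values that set the samples apart most widely against their spread. They come from the RefSeq table of GRCm38.p6, are printed 5′ to 3′ on the strand of the gene, and capitals mark the letters GTTAAT, a half-site of the HNF1 factors. The Umod stretch is chr7:119479263-119479512 on the minus strand, the Slc12a1 stretch is chr2:125152350-125152509 on the plus strand, ending where the annotated gene begins, and the Kng2 stretch is chr16:23029102-23029351 on the minus strand.
Umod: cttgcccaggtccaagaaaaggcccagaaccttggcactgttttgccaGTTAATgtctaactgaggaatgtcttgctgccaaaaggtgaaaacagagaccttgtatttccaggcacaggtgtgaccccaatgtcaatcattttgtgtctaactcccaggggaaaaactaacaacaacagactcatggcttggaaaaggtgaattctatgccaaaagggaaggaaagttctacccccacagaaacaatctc
Slc12a1: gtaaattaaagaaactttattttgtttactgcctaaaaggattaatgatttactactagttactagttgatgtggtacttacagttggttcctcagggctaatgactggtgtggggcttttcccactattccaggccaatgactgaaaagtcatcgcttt
Kng2: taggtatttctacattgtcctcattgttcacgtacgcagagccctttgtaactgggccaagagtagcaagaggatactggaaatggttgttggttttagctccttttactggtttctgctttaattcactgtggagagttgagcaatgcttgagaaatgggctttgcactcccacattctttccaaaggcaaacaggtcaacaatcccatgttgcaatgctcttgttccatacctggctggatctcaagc

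An entry was found for 6 of the 8 members, all but Bsnd and Ppp1r1a. The grainyhead motif AACCNGTT, searched on both strands in the 250 bases before the start given by the entry, was in 0 of these 6. It was in 1.79% of 32851 promoters in the table. For Slc12a1, Ptger3 and Casr the window ran past the annotated gene start, with 160, 195 and 243 bases before it. GTTAAT was in 1 of the 6, Umod, against 6.43% of promoters. AGAACA, a half-site of the steroid hormone receptors, was in 0 of the 6, against 16.1% of promoters, and AAGGTCA, the site of the estrogen-related receptors, was in 0 of the 6, against 4.08%. AACCNGTT and GTTAAT can overlap by the letters GTT, and no member's window held more than 1 of the motifs. A match, or none, describes these windows alone.

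Grhl1 itself lay between 4.40 and 4.92 in knockout kidneys, against 4.96 to 5.25 in wild-type kidneys, with no overlap. Its difference was -0.38 (exact permutation test, two-sided, p = 0.000311), and limma gave an adjusted p of 0.113. Of 3 measured Y-linked genes, the mean lay at 3.96 to 4.26 in 5 samples, knockout 13, 14 and 15 and wild type 6 and 7, and at 8.37 to 8.68 in the other 10. Xist, the RNA of the inactive X chromosome, was at 11.4 to 11.6 in those 5 samples, against 3.60 to 4.29 in the 10. Each genotype thus held both sets of samples, which the labels do not name. Liver markers stood high in 3 samples (knockout 10, wild type 3 and wild type 7, list mean 8.62 to 10.7, against 6.45 to 6.90 in the other 12), and adrenal cortex markers stood high in 6 (knockout 10 to 13, wild type 2 and 3, list mean 7.04 to 9.29, against 4.56 to 4.93). The label of kidney was checked by the mean of 8 proximal tubule markers, which was 12.51 to 12.57 in knockout and 12.47 to 12.55 in wild-type kidneys.

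Over the thick ascending limb genes as a group, no member differed between knockout and wild-type kidneys beyond the spread between mice. By limma with Benjamini-Hochberg adjustment over all 23521 probe sets, 0 of 8 members passed an adjusted p of 0.05, against 0.0128% of all probe sets (3 of them), and 0 of 8 had an unadjusted p under 0.05, against 5.55%. The exact rank-sum test also gave 0 of 8 at an unadjusted p under 0.05, against 4.77% of all probe sets. The genotypes overlapped for 8 of 8 members, while 0.123% of all probe sets had groups that did not overlap. The members' median difference, knockout minus wild type, was 0.04 on the log2 scale, and that of all probe sets was 0.0083. The median difference of the members turned to -0.0252 with the mean of the fat markers as a covariate, and to -0.0248 within the samples with Y-linked transcripts. Of the fat markers, Ucp1 differed in mean between genotypes by 1.285 and Lep by -0.6828, and neither passed (limma adjusted p = 0.274 and 0.61). The part of Ucp1 and Lep in the turn with the fat covariate was not tested. The 95% intervals of the 8 differences ran from -0.29 to 0.32, so that a change beyond 0.817-fold or 1.25-fold lay outside the interval of every member. In whole kidney, fewer cells of the segment and less RNA per cell cannot be told apart. The plots of single kidneys and of the genotype differences show these values.

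**Figure D1:**
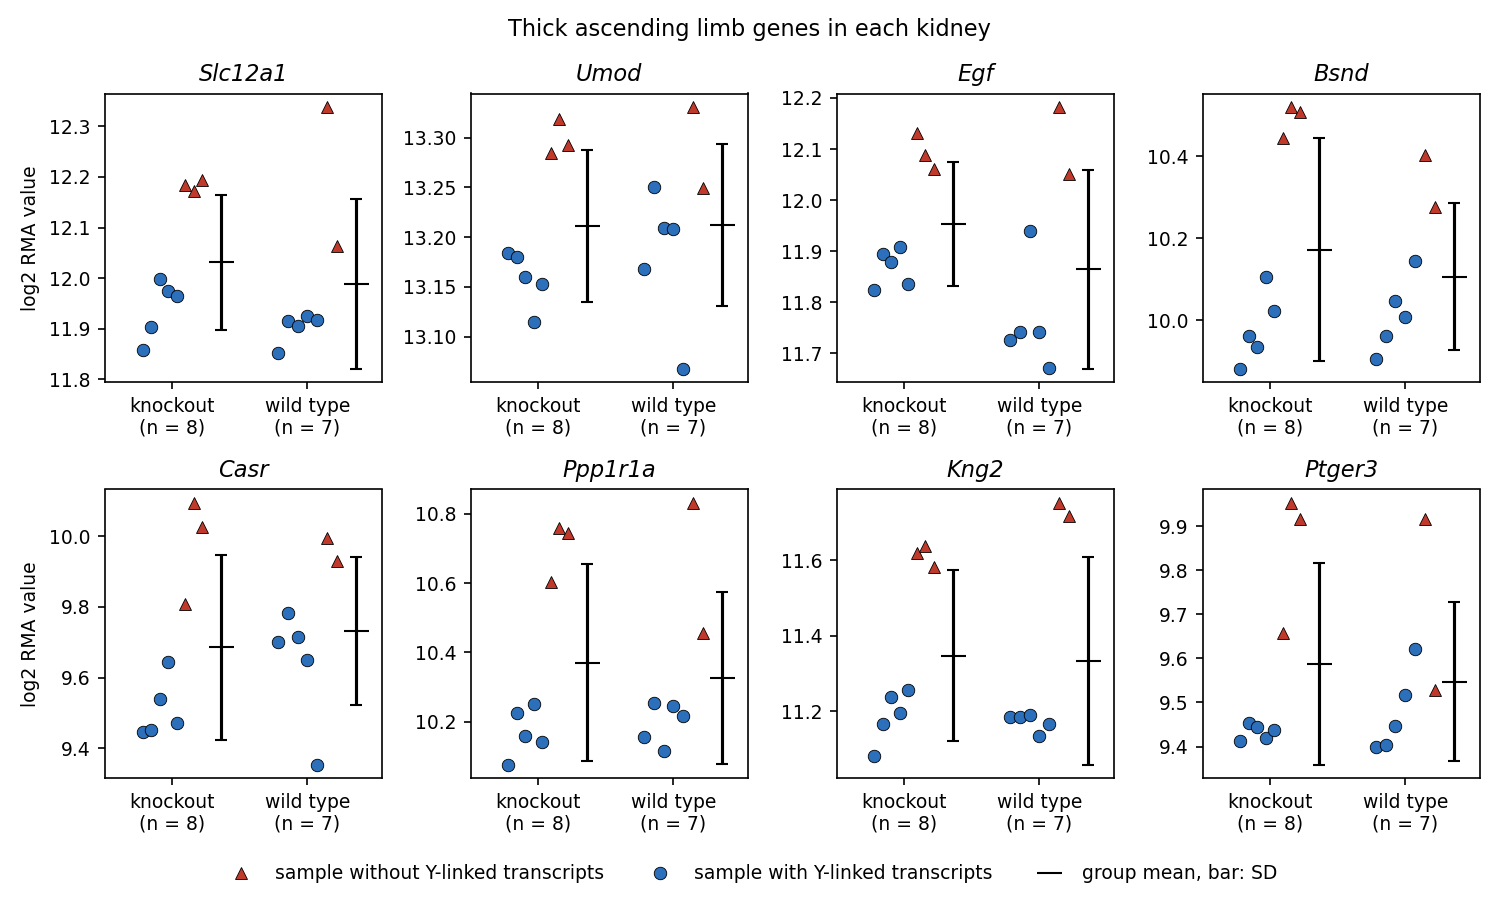
Log2 RMA value (vertical axis) of each thick ascending limb gene in the 8 knockout and 7 wild-type kidneys, 1 point a kidney, with group mean and SD; triangles are the 5 samples without Y-linked transcripts and circles the 10 with them. The genotypes overlap for all 8 genes, and for 6 of them (not Umod and Ptger3) every triangle lies above every circle.

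**Figure D2:**
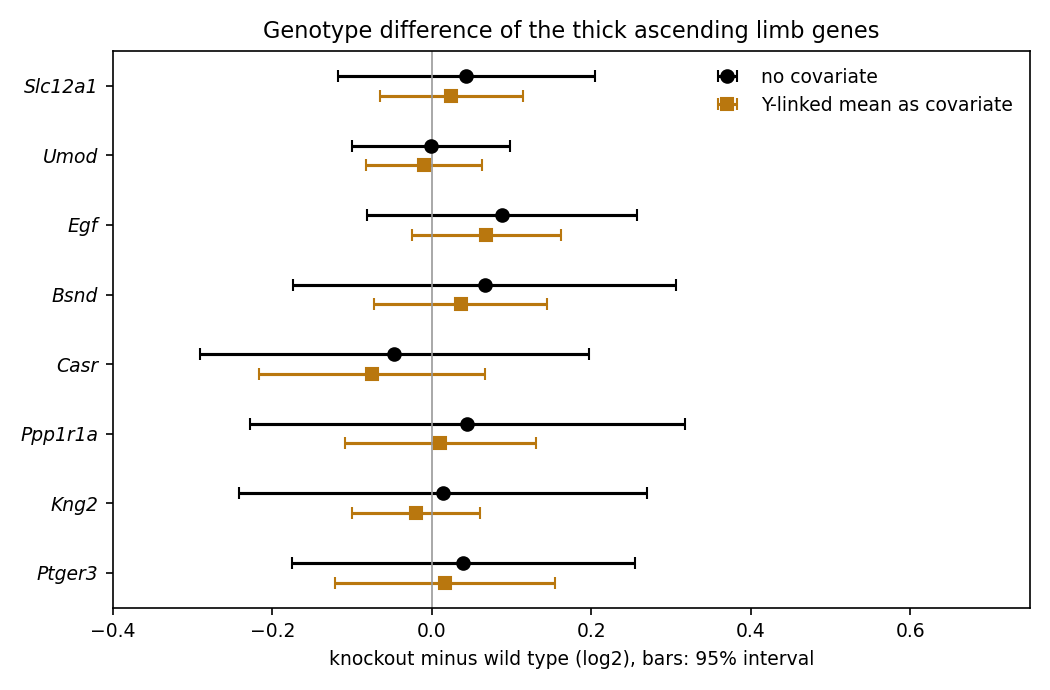
Difference in log2 value, knockout minus wild type (horizontal axis), of each thick ascending limb gene with its 95% interval from limma, without a covariate (circles) and with the mean of the Y-linked genes as a covariate (squares). Every interval includes 0; without the covariate their bounds run from -0.29 to 0.32, and with it from -0.22 to 0.16.

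Slc12a1, the sodium-potassium-chloride cotransporter that loop diuretics block, had a lowest value of 11.86, a median of 11.99 and a highest of 12.19 in knockout kidneys, against 11.85, 11.92 and 12.34 in wild-type kidneys. The wild-type range enclosed that of the knockouts. The mean was 12.03 ± 0.13 in knockout and 11.99 ± 0.17 in wild-type kidneys (SD, n = 8 and 7), a difference of 0.04 (SE 0.08, limma adjusted p = 0.997; exact permutation p = 0.588). The spread within a genotype followed the Y-linked transcripts. Without them, Slc12a1 had 12.18, 12.17 and 12.19 in knockouts 13, 14 and 15 and 12.34 and 12.06 in wild types 6 and 7, against 11.85 to 11.998 (median 11.92) in the 10 samples with them. All 5 lay above all 10, by 0.27 in the mean (1.21-fold), with a like difference in knockout (0.24) and in wild-type kidneys (0.30).

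Bsnd, the barttin subunit that carries ClC-K channels to the basolateral membrane, had a lowest value of 9.88, a median of 10.06 and a highest of 10.52 in knockout kidneys, against 9.91, 10.05 and 10.40 in wild-type kidneys. The 2 genotypes covered nearly the same range, and the difference of 0.07 (SE 0.11) had a limma adjusted p of 0.997. In the samples without Y-linked transcripts, Bsnd had 10.44, 10.52 and 10.51 in knockouts 13, 14 and 15 and 10.40 and 10.28 in wild types 6 and 7, against 9.88 to 10.14 (median 9.98) in the 10 with them. The sets did not overlap, and the mean differed by 0.43 (1.35-fold). Intercalated cells of the collecting duct also hold barttin, and the mean of their 6 markers was 9.65 to 10.1 in the samples without Y-linked transcripts, against 9.30 to 9.69 in those with them; the part of those cells in the Bsnd values was not tested.

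Umod, which encodes the most abundant protein of normal urine, had a lowest value of 13.11, a median of 13.18 and a highest of 13.32 in knockout kidneys, against 13.07, 13.21 and 13.33 in wild-type kidneys. It varied least of the 8 members, with an SD within genotype of 0.08. The difference was -0.0012 (SE 0.05, 95% interval -0.10 to 0.10, limma adjusted p = 0.999). Among samples without Y-linked transcripts, Umod had 13.28, 13.32 and 13.29 in knockouts 13, 14 and 15 and 13.33 and 13.25 in wild types 6 and 7, against 13.07 to 13.25 (median 13.17) in the others. The sets met at their edge, since wild type 7 lay just under wild type 2, and the mean differed by 0.13 (1.09-fold). Umod lay above 99.9% of probe sets; whether so bright a probe set was compressed was not tested.

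Egf, the growth factor precursor that the segment and the distal convoluted tubule make, had a lowest value of 11.82, a median of 11.90 and a highest of 12.13 in knockout kidneys, against 11.67, 11.74 and 12.18 in wild-type kidneys. Its difference of 0.09 (SE 0.08, 95% interval -0.08 to 0.26) was the largest of the 8 and lay within the spread between mice (limma adjusted p = 0.984; exact permutation p = 0.301). Without Y-linked transcripts, Egf had 12.13, 12.09 and 12.06 in knockouts 13, 14 and 15 and 12.18 and 12.05 in wild types 6 and 7, against 11.67 to 11.94 (median 11.83) in the 10 with them. Every one of the 5 lay above the 10, with a mean difference of 0.29 (1.22-fold).

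Kng2, a second mouse kininogen gene whose protein is the precursor of kinins, had a lowest value of 11.08, a median of 11.25 and a highest of 11.64 in knockout kidneys, against 11.13, 11.18 and 11.75 in wild-type kidneys. The difference was 0.01 (SE 0.12, limma adjusted p = 0.998), with both genotypes split into a high and a low set of samples. Kng2 had 11.62, 11.64 and 11.58 in knockouts 13, 14 and 15 and 11.75 and 11.72 in wild types 6 and 7, against 11.08 to 11.26 (median 11.18) in the samples with Y-linked transcripts. The gap was wide against the spread on either side: the SD within genotype was 0.25, and within genotype and Y-linked set it was 0.05, 5.43 times smaller. The liver makes kininogen too. Kng1, the other mouse kininogen gene measured, was at 5.48 in knockout 10, 4.83 in wild type 3 and 7.02 in wild type 7, the 3 samples with liver markers, against 3.47 to 4.19 in the other 12. Kng2 lay between 11.08 and 11.75 in the same 12 samples, which hold both its lowest and its highest value. The part of liver transcripts in the Kng2 values was not tested. Whether probes of these like genes bind each other's RNA was not tested.

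Casr, the G protein-coupled receptor for extracellular calcium, had a lowest value of 9.45, a median of 9.59 and a highest of 10.09 in knockout kidneys, against 9.35, 9.72 and 9.99 in wild-type kidneys. The difference was -0.05 (SE 0.12, 95% interval -0.29 to 0.20, limma adjusted p = 0.997). Casr had 9.81, 10.09 and 10.03 in knockouts 13, 14 and 15 and 9.99 and 9.93 in wild types 6 and 7, against 9.35 to 9.78 (median 9.59) in the samples with Y-linked transcripts. The sets stood apart by little, knockout 13 and wild type 2 being the nearest, and the mean differed by 0.39 (1.31-fold). The parathyroid gland holds much Casr. Parathyroid hormone (Pth) was at 3.05 to 3.45 over all samples, above 11.2% of probe sets. The mean of the 2 measured parathyroid and thyroid markers was 4.10 to 4.24 without Y-linked transcripts, against 4.15 to 4.42 with them. The part of parathyroid tissue in the Casr values was not tested.

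Ptger3, which encodes the EP3 receptor that lowers cyclic AMP in the segment, had a lowest value of 9.41, a median of 9.45 and a highest of 9.95 in knockout kidneys, against 9.40, 9.52 and 9.92 in wild-type kidneys. The difference was 0.04 (SE 0.10, limma adjusted p = 0.997). It had 9.66, 9.95 and 9.92 in knockouts 13, 14 and 15 and 9.92 and 9.53 in wild types 6 and 7, against 9.40 to 9.62 (median 9.44) in the samples with Y-linked transcripts. Wild type 7 fell among the 10, so that the sets overlapped, and the mean differed by 0.34 (1.26-fold). Fat cells also hold EP3. The mean of the 5 measured fat markers was 7.44 to 8.39 in knockout kidneys, against 7.31 to 7.95 in wild-type kidneys. The means of these markers did not move alike between genotypes. Ucp1 differed by 1.285 and Lep by -0.6828, and neither passed (limma adjusted p = 0.274 and 0.61). The others differed by 0.0074 to 0.1458. By Y-linked set the mean was 7.85 to 8.39 without Y-linked transcripts, against 7.31 to 7.95 with them. The part of fat cells in the Ptger3 values was not tested.

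Ppp1r1a, inhibitor 1 of protein phosphatase 1, which acts once protein kinase A has phosphorylated it, had a lowest value of 10.08, a median of 10.24 and a highest of 10.76 in knockout kidneys, against 10.12, 10.25 and 10.83 in wild-type kidneys. Its difference was 0.04 (SE 0.13, limma adjusted p = 0.997), with the widest interval of the 8, -0.23 to 0.32. Ppp1r1a had 10.60, 10.76 and 10.75 in knockouts 13, 14 and 15 and 10.83 and 10.46 in wild types 6 and 7, against 10.08 to 10.25 (median 10.19) in the samples with Y-linked transcripts. The sets did not overlap, and this was the largest difference in means among the members, 0.49 (1.41-fold), at 0.53 in knockout and 0.45 in wild-type kidneys.

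The members shared 1 pattern across the samples of both genotypes. All 8 had a higher mean without Y-linked transcripts, by 0.13 to 0.49 with a median of 0.37, where the median over all probe sets was -0.0089. For 6 of 8 members, all but Umod and Ptger3, every sample without lay above every sample with Y-linked transcripts, against 6.82% of all probe sets and 13.1% of the 2283 probe sets at least as bright as the dimmest member. Among knockout kidneys alone 8 of 8 separated in that direction, against 13% of probe sets, and among wild-type kidneys alone 6 of 8, against 15.4%. In both genotypes at once 6 of 8 separated, against 8.34%. Over all 15 samples 0 of 8 separated the other way, with every sample without below every sample with Y-linked transcripts, against 4.69%. These sets were drawn from the measured Y-linked transcripts and not from the labels, so the comparison is a description without a test. The members were chosen with earlier results of these data known, which limits what these counts can show. The count of 6 was 4 (Egf, Bsnd, Ppp1r1a and Kng2, against 4.27% of probe sets) once each array was centred on its 75th percentile, which was 7.52 to 7.54 without Y-linked transcripts, against 7.41 to 7.49 with them. All 8 still had the higher mean there, by 0.06 to 0.43. With median centring 7 of 8 separated (all but Ptger3, against 7.64% of probe sets), without the liver samples 8 of 8 (against 9.23%) and without the adrenal samples 7 of 8 (all but Ptger3, against 10.8%). The heat map of deviations by kidney shows the pattern beside the marker lists.

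**Figure D3:**
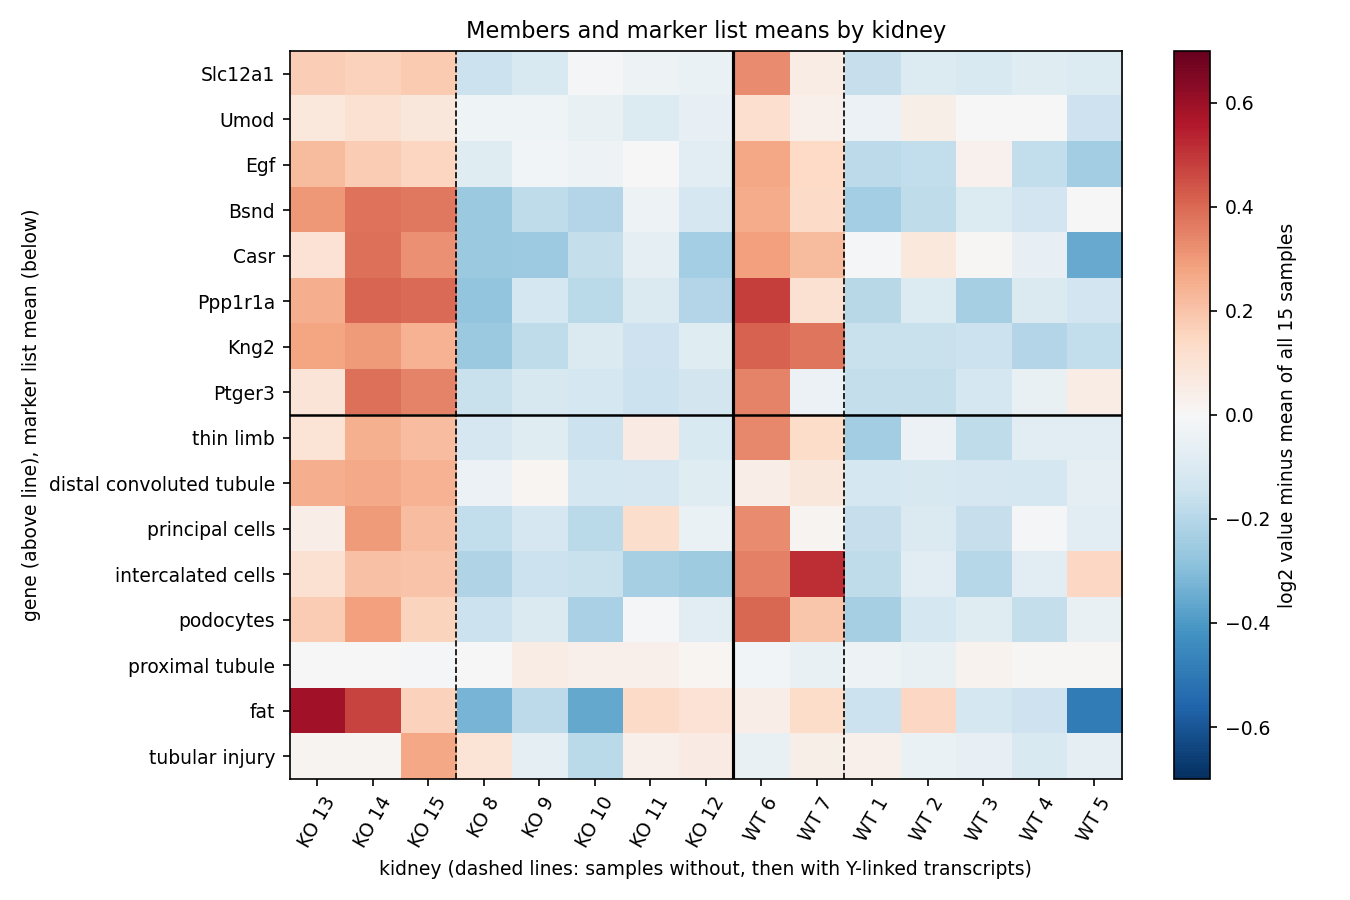
Deviation of each kidney's log2 value from the mean of all 15 (colour), for the 8 thick ascending limb genes above the line and for the means of other marker lists below it; columns are knockout kidneys (KO), then wild-type kidneys (WT), with the samples without Y-linked transcripts left of the dashed line in each. The members are above their mean in KO 13 to 15 and in WT 6, and in WT 7 for all but Ptger3. The mean of the proximal tubule list hardly varies, but its 8 genes moved both ways by Y-linked set. Without overlap, 3 of them lay above and 2 below in the samples without Y-linked transcripts, with differences from -0.88 to 0.31.

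The spread between mice was wide for these genes. The median SD within genotype was 0.22 over the members, against 0.15 over all probe sets and 0.10 over the 2283 at least as bright as the dimmest member. Within genotype and Y-linked set it was 0.05 to 0.13, and the ratio of the first SD to the second ran from 1.60 for Umod to 5.43 for Kng2. With the mean of the Y-linked genes held as a covariate, the members' genotype differences lay between -0.07 (Casr) and 0.07 (Egf), with intervals from -0.22 to 0.16 and limma adjusted p-values from 0.719 to 0.980. That fit called 0 of 8 members, against 0.0595% of all probe sets, and 0 of 8 had an unadjusted p under 0.05, against 8.71%. The interaction of genotype with the Y-linked set had adjusted p-values from 0.735 to 0.952 for the members in limma. It called 0 of 23521 probe sets (0.0%), while 7.04% of them reached an unadjusted p under 0.05.

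Within the 10 samples with Y-linked transcripts, the genotype difference was largest for Casr, -0.13 (limma adjusted p = 0.768), and for Egf, 0.10 (adjusted p = 0.699), and 0 of 8 members passed, against 0.0085% of probe sets. Within the 5 samples without them it was largest for Bsnd, 0.15 (adjusted p = 0.729), and for Kng2, -0.12 (adjusted p = 0.734), with Ptger3 next at 0.12 (adjusted p = 0.872), and again 0 of 8 passed, against 0.00425%.

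Correlations between members describe the same split. After the genotype means were subtracted, the 28 pairs of members had a Pearson r of 0.686 to 0.947 (median 0.829) over the 15 arrays, which fall into 2 sets. Over the 10 samples with Y-linked transcripts alone the same pairs ran from -0.85 (Casr with Ptger3) to 0.691 (Slc12a1 with Kng2), with a median of 0.15 and 18 of 28 above 0. The gene most like each member over the 15 arrays, again with both sets in it, was Spidr for Slc12a1 (r = 0.977, and 0.865 over the 10), Dtymk for Umod (0.957, and 0.933), Cytip for Egf (0.978, and 0.885) and Tceal9 for Bsnd (0.981, and 0.870). It was Srgap3 for Casr (0.948, and 0.854), Large2 for Ppp1r1a (0.982, and 0.939), Mme for Kng2 (0.986, and 0.693) and Uqcc2 for Ptger3 (0.979, and 0.890). None of the 24 genes named as the 3 most alike to each member was itself a member or in a list used here. Of the 24, 19 had every sample without above every sample with Y-linked transcripts, against 6.82% of all probe sets. The 24 were picked by likeness to members over both sets of samples, so a high count follows from the choice.

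The other genes of the segment also showed no genotype change that passed. Of 35 further thick ascending limb genes 31 were measured, 21 with a higher and 10 with a lower mean in knockout kidneys. The samples were whole kidneys, and the part of other segments in the values of these 31 genes was not tested. Of all 23521 probe sets, 12831 had a higher and 10690 a lower mean there, and the directions counted here were not tested. Of the 31 genes, 0 passed in limma, against 0.0128% of all probe sets. At an unadjusted p under 0.05 there were 2 of the 31, near the 5.55% of all probe sets. Their median difference was 0.02, against 0.0083 over all probe sets. Of the 7 measured genes of salt transport, Slc9a3, the sodium-proton exchanger NHE3, averaged 10.53 in knockout and 10.39 in wild-type kidneys (difference 0.13, limma adjusted p = 0.894). Kcnj16, a basolateral potassium channel subunit, averaged 11.82 in knockout and 11.75 in wild-type kidneys (difference 0.08, adjusted p = 0.894 in limma). The exact permutation test, without adjustment, gave p = 0.00326 for Kcnj16 and p = 0.0454 for Slc9a3. They were the 2 of the 31 at an unadjusted limma p under 0.05, and the genotypes overlapped for both. Among the 4 claudins of the paracellular path all 4 means were lower in knockout kidneys, by little: Cldn14 differed by -0.08 (limma adjusted p = 0.973) and Cldn16, the magnesium path, by -0.02 (0.997).

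Of 12 regulators of the cotransporter, among them the WNK kinases, their target kinases and the hormone receptors of the segment, 9 had a higher and 3 a lower mean in knockout kidneys and 0 passed. Calcr, the calcitonin receptor, differed by -0.16 (limma adjusted p = 0.973), and Stk39, the kinase SPAK that phosphorylates Slc12a1, differed by 0.11 (adjusted p = 0.980). Of 4 measured transcription factors of the segment, Irx1 differed by -0.10 (limma adjusted p = 0.975) and Esrrb by 0.10 (0.989). In the macula densa, the sensor plaque at the end of the limb, Nos1 differed by 0.07 (0.988) and Ptgs2, the inducible cyclooxygenase, by 0.04 (0.997). Hpn, the protease that releases uromodulin, differed by 0.02 (limma adjusted p = 0.997), and Defb1, a defensin secreted into urine, by 0.06 (0.989).

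By Y-linked set, 21 of the 31 had a higher mean without Y-linked transcripts (median difference 0.19), as had 11227 of all 23521 probe sets. Of the 31, 11 separated with every sample without them above (against 6.82% of all probe sets). Another 2 separated with every such sample below (against 4.69%, so the 2 are near the background). The genes named here and below for that split were picked after their values were seen. Pou3f3, a transcription factor of the segment, had 9.73, 9.69 and 9.63 in knockouts 13, 14 and 15 and 9.92 and 9.67 in wild types 6 and 7, a mean 0.60 above the 10 other samples. Adcy6, the adenylyl cyclase of vasopressin signalling, differed by 0.52 in the same direction, Kcnj1 (ROMK), which returns potassium to the lumen, by 0.38, and Stk39 by 0.34, each without overlap. The 2 that lay below were Hpn (-0.28) and Pth1r, the parathyroid hormone receptor (-0.17). The part of other segments of the kidney in the values of Hpn and Pth1r was not tested.

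The pathways in which the members act were read in the same way, and 0 of their genes passed in limma, against 0.0128% of all probe sets. Only Ptger2 among them had an unadjusted p under 0.05, as did 5.55% of all probe sets. Of all 23521 probe sets, 12831 had a higher and 10690 a lower mean in knockout kidneys. The directions counted for these pathways were not tested. Around Egf, 8 of 9 receptor and ligand genes were measured, 7 with a higher mean in knockout kidneys (median 0.11); Erbb3 differed by 0.20 (limma adjusted p = 0.937) and the ligand Btc by 0.14 (0.967). By Y-linked set (without minus with), the receptor Erbb4 differed by 0.57 and the ligand Hbegf differed by -0.59, both without overlap. Around Kng2, all 5 genes of the kallikrein-kinin system had a lower mean in knockout kidneys (median -0.10), among them the kinin receptors Bdkrb2 (-0.11, limma adjusted p = 0.979) and Bdkrb1 (-0.10, 0.984). Kng1 is 1 of the 5, and its values carry the liver samples given above.

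Around Ptger3, 8 of 10 genes of prostaglandin E2 were measured, 7 with a higher mean in knockout kidneys (median 0.04). Ptger2, the EP2 receptor, averaged 4.003 in knockout and 3.76 in wild-type kidneys, a difference of 0.25 (SE 0.10, limma adjusted p = 0.789). It lay above 20.2% of probe sets. Whether so dim a probe set was compressed, or lay above background, was not tested. Slco2a1, the prostaglandin transporter, differed by 0.14 between genotypes (limma adjusted p = 0.997). By Y-linked set this pathway held the widest difference in the lists of the segment and its pathways. Hpgd, the dehydrogenase that inactivates prostaglandin E2, had 9.79, 10.06 and 9.93 in knockouts 13, 14 and 15 and 10.13 and 10.10 in wild types 6 and 7, against 8.28 to 8.65 in the 10 with Y-linked transcripts, a difference of 1.52 (2.86-fold). Slco2a1 lay at 10.47 to 10.66, against 9.69 to 9.9997, a difference of 0.76, and the receptor Ptger4 differed by 0.32, both without overlap.

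Around Ppp1r1a, 5 of 6 genes of phosphatase 1 and protein kinase A were measured, and the catalytic subunits Ppp1cc (0.07) and Ppp1cb (0.04) had limma adjusted p-values of 0.997. None of the 5 separated by Y-linked set, against 6.82% of all probe sets above and 4.69% below, so this is near the background. Around Casr, the 6 genes of calcium sensing had a median difference of -0.0065 between genotypes, and Vdr, the vitamin D receptor, differed by 0.09 (limma adjusted p = 0.973). Only Pth1r of these 6 separated by Y-linked set, which is also near those shares of all probe sets.

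**Figure D4:**
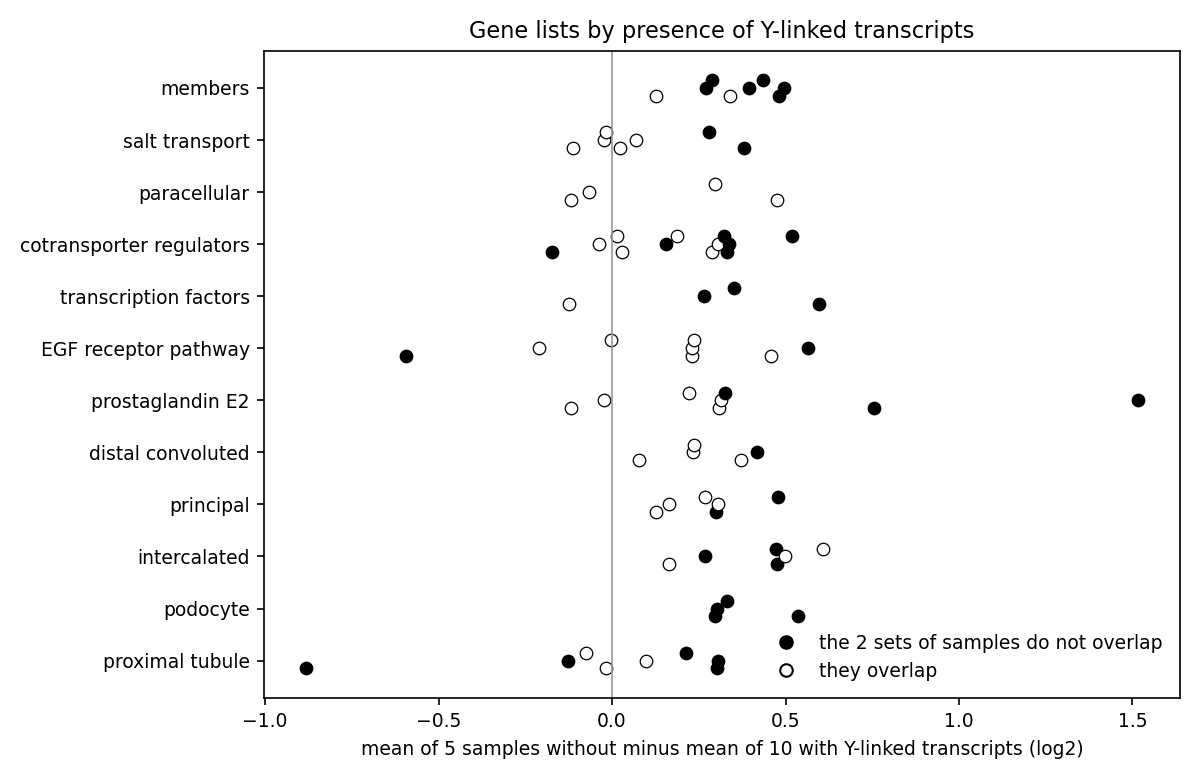
Difference in mean log2 value, 5 samples without minus 10 samples with Y-linked transcripts (horizontal axis), 1 point a gene, for the thick ascending limb genes, the lists of the segment and its pathways, and markers of other nephron segments; filled points are genes whose 2 sets of samples do not overlap. All 8 members lie above 0, from 0.13 to 0.49, as do all genes of the distal convoluted, principal, intercalated and podocyte lists, while the proximal tubule list lies on both sides, and Hpgd is the point at 1.52.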

How the data were processed

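Kidney RNA of 15 mice (500 ng each, Ambion WT Expression kit, per the labels' protocols) was measured on 1-colour arrays. The deposited values are on the log2 scale, made by the authors with RMA per the submitters' processing notes; software and version are not given in the sources used here. RMA equalises the arrays, so a shift of most transcripts is removed, and it compresses dim probe sets. Whether a probe set lay above background was not tested. Precision rests on the number of arrays. Of 41345 probe sets, 23521 had 1 gene symbol, 1814 several and 16010 none in the platform annotation. For 23328 the symbol was matched to RefSeq through its Entrez number. A further Egf probe set shared with another gene was not used. For a gene with several probe sets, the one with the highest mean was read.

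Knockout was compared with wild type in limma 3.58.1 under R 4.3.3, two-sided, with Benjamini-Hochberg adjustment over 23521 probe sets, and for single genes by the exact permutation test over 6435 splits. The fit was tested on simulated data first. Y-linked presence means a Y-linked list mean above the midpoint of its range. Besides the members and Grhl1, each list names the 2 genes with the smallest unadjusted p, and each member its 3 most alike genes; genes outside this are said to be picked by their values. Of 151 list genes 137 were measured. The members and lists were chosen with earlier results of these data known. The samples are single mice per the series' design, with no pairing or batch in the labels. Other sets of tested probe sets (all of them, or without dim ones), centrings, covariates, subsets and left-out samples were tried as alternatives.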

Additional observations from a re-analysis of the deposited data

Results flagged for a closer look

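A single kidney stood far from the others of its genotype in 3 of 60 groups of values tested, where chance alone flags about 1 in 20. Ptger3 in wild type 6 was the highest of the 7 wild-type kidneys at 9.92, with 9.62 the next value. Calcr in wild type 7 was the highest at 6.06, with 5.70 the next. Nos1 in wild type 7 was the lowest at 5.55, with 5.80 the next. Wild types 6 and 7 are the wild-type samples without Y-linked transcripts, and wild type 7 also held liver transcripts; the part of either in these values was not tested.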

How the results depend on the processing

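No member passed the threshold under any alternative run. Of 128 member values under other settings, 106 kept their direction and 22 turned it. Settings that change only which probe sets are tested leave each difference as it was. Their share of the 106 was therefore fixed in advance. The count of probe sets passing, 3 of 23521, was 14 with the Y-linked covariate, 7 with all probe sets tested, 1 within the samples without Y-linked transcripts, 0 by the exact rank-sum test (1123 at an unadjusted p under 0.05), and 2 to 6 with a sample left out, 6 without knockout 8. The median difference of the members (0.0413) was 0.0135 with the Y-linked covariate, and turned to -0.0252 with the fat covariate and to -0.0248 within the samples with Y-linked transcripts. With a sample left out it ran from -0.0117 to 0.10, below 0 without knockout 14 or knockout 15, that of the 31 other genes from 0.0086 to 0.06, the members passing from 0 to 0, and those separated by Y-linked set from 6 to 8.

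Differences that turned sign: Kng2 -0.0198 with the Y-linked covariate. With the adrenal covariate, Umod 0.0012 and Cldn16 0.0261. With median centring, Umod 0.0026. With the liver covariate, Umod 0.0024. With the fat covariate, Slc12a1 -0.0051, Bsnd -0.0195, Ppp1r1a -0.0497, Kng2 -0.0772, Ptger3 -0.0098 and Slco2a1 -0.0079. Within the samples with Y-linked transcripts, Bsnd -0.032, Ppp1r1a -0.0272, Ptger3 -0.0438 and Nos1 -0.0157. Within those without, Slc12a1 -0.0174, Umod 0.0082, Egf -0.0229, Casr 0.014, Kng2 -0.12, Irx1 0.0444, Esrrb -0.0057, Ptgs2 -0.37 and Erbb3 -0.0179. Without the adrenal samples, Umod 0.0388, Casr 0.0297, Kng2 -0.0248, Cldn16 0.0608, Ptgs2 -0.028, Hpn -0.006, Erbb3 -0.0161 and Ppp1cb -0.0006. Without the liver samples, Umod 0.0131, Casr 0.0101, Cldn16 0.0256 and Hpn -0.0472. With a sample left out, Umod ran from -0.0253 to 0.0187, Ppp1r1a from -0.0106 to 0.13, Kng2 from -0.0277 to 0.084, Ptger3 from -0.0127 to 0.10, Cldn16 from -0.0699 to 0.029, Ptgs2 from -0.0539 to 0.135 and Hpn from -0.0161 to 0.0555. The cause was not tested.

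Added after seeing the data, the count of members separated by Y-linked set (6) was also taken with median or 75th-percentile centring (7 and 4), without the liver samples (8) and without the adrenal samples (7). No paired analysis was possible because the replicate numbers run on through both genotypes and no 2 samples share one. The alternative of each other probe set was not run, since every member has 1.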

Other observations

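Markers of other parts of the nephron also differed by Y-linked set in these kidneys. All 4 measured podocyte genes lay higher in every sample without Y-linked transcripts, with a median difference of 0.32; such separation was found for 6.82% of all probe sets, and for 13.1% of those at least as bright as the dimmest thick ascending limb gene. The intercalated cell list had a median of 0.47 (3 of 6 separated), the thin limb list 0.39 (2 of 4), the principal cell list 0.28 (2 of 6) and the distal convoluted tubule list 0.24 (1 of 5). The proximal tubule list had a median of 0.04, with 3 genes above and 2 below without overlap (4.69% of all probe sets lay below in this way), among them Slc22a6, the organic anion transporter OAT1, at -0.88. The members' median of 0.37 lies among these lists, and no difference between lists was tested.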
